A study of Rattus norvegicus with 6 samples.

Results

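The Hippo pathway genes described here are 10 core members of the cascade: the kinases Stk3, Stk4, Lats1 and Lats2, the kinase activators Mob1a and Mob1b, the co-activators Yap1 and Wwtr1, and the DNA-binding partners Tead1 and Tead4. They were taken by name from a table of 22250 rat genes. Each name had 1 row. The set was chosen by name with earlier values in view, namely the levels and the 3Cl-HBA against DMSO changes of these genes and the values of Mob1b per library. Those levels and changes are therefore given as a description. Where a call or a p of one of the 10 genes is printed, it describes these libraries and is no independent test. RNA was sequenced from cultured heart muscle cells of wild-type Sprague-Dawley rats 1 day old, freed from the heart with collagenase and grown with foetal bovine serum. Cultures were given the solvent DMSO or 40 µM of 3Cl-HBA, with 48 h as the time in both groups and 3 libraries per group, numbered 1 to 3. The series title names the hydroxycarboxylic acid receptor HCAR1, a receptor for lactate, as the receptor being activated. The labels do not say that the libraries came from separate cultures or animals, so the spread between them may be technical.

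In the Hippo cascade, the kinases encoded by Stk3 and Stk4 (MST2 and MST1) act with the scaffold Sav1 to phosphorylate the kinases LATS1 and LATS2 and their activators MOB1A and MOB1B. Active LATS kinases phosphorylate YAP and TAZ, the product of Wwtr1, which are then held in the cytoplasm by 14-3-3 proteins or degraded. Unphosphorylated YAP and TAZ enter the nucleus and bind TEAD factors, which drive genes such as Ccn1, Ccn2 and Ankrd1. In the heart, YAP is known for promoting division of cardiomyocytes before and shortly after birth, and the cascade restrains it. Most of this control acts on the proteins, by phosphorylation and location, which RNA levels do not measure.

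Library totals were 13240800 to 17202191 reads, and each of the 10 genes had 349 to 2715 reads in a library. All 12 listed cardiomyocyte markers were detected, with a summed level of 13617.7 to 14429.6 FPKM (reads scaled to gene length in kilobases and to library total) in DMSO and 13185.1 to 14012.5 FPKM after 3Cl-HBA. The cultures also held transcripts of other heart cells. Summed levels in DMSO and after 3Cl-HBA ran from 3879 to 4083 and 3882 to 3999 FPKM for 9 fibroblast markers, and from 1485 to 1630 and 1521 to 1549 FPKM for 7 smooth muscle and pericyte markers. For 6 endothelial markers they ran from 160 to 185 and 169 to 175 FPKM, and for 6 macrophage and leukocyte markers from 219.8 to 240.5 and 236 to 245 FPKM. By name, Tnnt2, cardiac troponin T, had 2320 to 2569 FPKM over the 6 libraries, the fibroblast collagen Col1a1 1712 to 1840 FPKM, and the leukocyte phosphatase Ptprc 2.15 to 2.94 FPKM. No marker stood at 0 in all libraries, and 0 of the 40 tested markers passed edgeR's test. At an unadjusted edgeR p under 0.05 there were 3, against 5.11% of all genes tested: the cardiomyocyte genes Ryr2, Nppa and Myl2, with log2 fold changes of -0.17, -0.13 and -0.14. The 3Cl-HBA libraries lay below all DMSO libraries for Ryr2, with 53.3 to 61.6 against 62.4 to 66.9 FPKM, and for Mybpc3, with 186 to 197 against 199 to 208 FPKM. They also lay below them for the fibroblast marker Tcf21 and the pericyte marker Rgs5, and above them for the macrophage marker Cd14. Groups that do not overlap, in either direction, were found for 10.5% of all genes tested. The part of these marker differences in the values of the 10 genes was not tested. The levels below are therefore sums over several cell types, in which fewer cells of a type and less RNA per cell cannot be told apart.

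All 10 genes were expressed in each library. Per unit of gene length Yap1 was the most abundant, at 67.3 ± 5.52 FPKM in DMSO (SD, n = 3), and Tead4 the least, at 5.65 ± 1 FPKM. By mean level over the 6 libraries the order was Yap1, Tead1, Wwtr1, Mob1a, Lats2, Mob1b, Stk3, Lats1, Stk4 and Tead4. The ranges over 6 libraries overlapped between the neighbours Tead1 and Wwtr1, Wwtr1 and Mob1a, and Mob1a and Lats2. Compared within each library, Tead1 lay above Wwtr1 in 6 of 6, Wwtr1 above Mob1a in 4 of 6 and Mob1a above Lats2 in 5 of 6. The other neighbours had ranges that did not overlap. The gene lengths the table uses run from 1545 bases for Yap1 and 1647 for Wwtr1 to 7087 for Lats1. Those of Yap1, Wwtr1, Tead1, Tead4 and Stk4 are multiples of 3, as are 51.8% of all lengths in the table. Whether the shorter models leave out untranslated regions was not tested, and the order of levels holds only for these lengths.

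**Figure D1:**
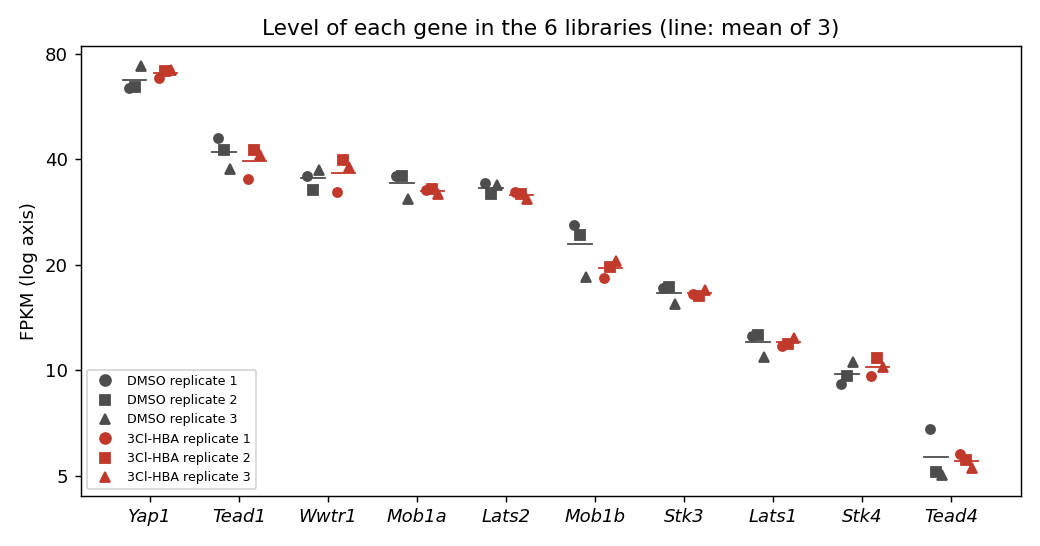
Level of the 10 Hippo genes in each library, in FPKM on a log axis, ordered by mean level, with DMSO in grey, 3Cl-HBA in red, a symbol for each replicate number and a line at the mean of each 3 libraries. Yap1 lies above the other genes in each library, Tead4 lies lowest, and the 2 groups overlap for each gene.

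Within each family of related genes, the same member had the higher FPKM in all 6 libraries. Yap1 made up 64 to 68% of the summed FPKM of Yap1 and Wwtr1, and Lats2 71.3 to 75.5% of that of Lats1 and Lats2. Stk3 made up 59.4 to 65.3% of Stk3 and Stk4, an order that rests on the gene lengths of 2749 and 5229 bases: without scaling to length, Stk4 had more reads than Stk3, with means of 52.3 and 45.7 CPM (read counts scaled to the library total) over the 6 libraries. Of the 4 TEAD genes, Tead1 made up 58.7 to 66.8% and Tead4 8.02 to 9.62%. The TEAD shares also rest on gene length, 1824 bases for Tead1 and 5253 for Tead4. Without scaling to length Tead1 and Tead4 lay closer, with means of 74.4 and 29.3 CPM over the 6 libraries. The groups overlapped for each of the FPKM shares above. That of Yap1 was 65.6 ± 1.38% in DMSO and 65.9 ± 1.89% after 3Cl-HBA (SD, n = 3), and that of Tead1 64.9 ± 1.89% and 62.6 ± 3.39%.

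None of the 10 genes was called as different after 3Cl-HBA, and neither was any other gene. With edgeR's quasi-likelihood test, 0 of 10 members had a Benjamini-Hochberg adjusted p under 0.05, as did 0 of 13903 genes tested, or 0.00%. At an unadjusted edgeR p under 0.05 there was 1 of the 10, Mob1b, against 711 of all genes tested, or 5.11%. DESeq2 and limma-voom also called 0 genes, or 0.00%, with 2.24% of 18107 and 5.06% of 13903 genes at an unadjusted p under 0.05. The 3Cl-HBA libraries lay entirely above or below the DMSO libraries for 0 of the 10, against 10.5% of all genes tested. The log2 fold change, 3Cl-HBA minus DMSO, was above 0 for Yap1, Wwtr1, Lats1 and Stk4, 4 of the 10, against 49.8% of all genes. The median over the 10 was -0.016, and over all genes tested -0.00047. Since the comparison was used to choose the genes, nothing is read from these counts.

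**Figure D2:**
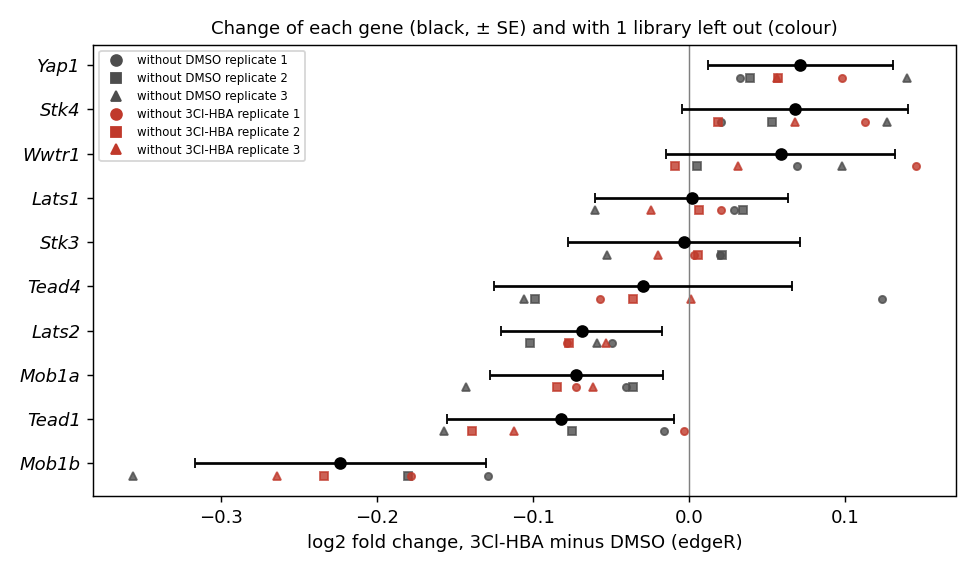
Log2 fold change of each of the 10 genes, 3Cl-HBA minus DMSO, from edgeR, as a black point ± SE, with coloured symbols below it for the value with 1 library left out. Mob1b stands lowest at -0.22 and moves to -0.36 without DMSO replicate 3, while the other 9 genes lie between -0.082 and 0.072.

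The MOB1 activators held the largest difference of the 10, and it rests on 2 DMSO libraries. MOB1A and MOB1B are closely related adaptor proteins that bind LATS kinases and release their activity. Mob1b (ENSRNOG00000010996, chromosome 14, 20960052 to 20992753, minus strand, coordinates as printed in the deposited table, whose build is not named) had 25.9, 24.3 and 18.4 FPKM in DMSO replicates 1 to 3 and 18.4, 19.7 and 20.5 FPKM in 3Cl-HBA replicates 1 to 3. These values rest on 976, 953 and 659 reads in DMSO and 726, 918 and 874 reads after 3Cl-HBA. DMSO replicates 1 and 2 were thus high, and DMSO replicate 3 stood among the treated libraries, so the groups overlapped. The means were 22.9 ± 3.94 and 19.6 ± 1.09 FPKM (SD, n = 3), and the log2 fold change was -0.22 (SE 0.093), a level 14.4% lower. Without DMSO replicate 3 the log2 fold change was -0.36, and edgeR's adjusted p went from 0.959 to 0.0356. Over the 13 alternatives, DESeq2 and limma-voom included, the adjusted p ran from 0.0356 to 1, with 0.502 as the next lowest. The value of 0.0356 is no support for a change. The Mob1b values per library were used to choose the genes, and DMSO replicate 3 was seen to be low. Without DMSO replicate 1 the log2 fold change was -0.13.

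DMSO replicate 3 was also the lowest or highest DMSO library in several other measures, a place that 1 of 3 libraries must always hold. It was the shallowest of the 6, at 13240800 reads, against 13942979 and 14499065 in DMSO replicates 1 and 2. Genes with at least 1 read were 16461 in DMSO replicate 3, against 16460 and 16515 in replicates 1 and 2. Among the DMSO libraries it had the highest summed level of each of the 5 marker lists. Its cardiomyocyte sum, 14429.6 FPKM, was the highest of all 6 libraries. So were its sums for fibroblast (4083 FPKM), smooth muscle and pericyte (1630 FPKM) and endothelial markers (185 FPKM). Some margins were small: the next highest sums were 14012.5 FPKM for cardiomyocyte markers, in 3Cl-HBA replicate 1, and 4035 FPKM for fibroblast markers, in DMSO replicate 1. DMSO replicate 3 also held the lowest DMSO level of 6 of the 10 genes (Tead1, Tead4, Lats1, Stk3, Mob1a and Mob1b) and the highest of the remaining genes but Lats2, namely Yap1, Wwtr1 and Stk4. A count of 6 was not particular to it: 3Cl-HBA replicate 1 was lowest of its group for Yap1, Wwtr1, Tead1, Lats1, Stk4 and Mob1b. The part of these features of DMSO replicate 3 in the Mob1b values was not tested. The coefficient of variation of Mob1b was 17% in DMSO and 5.95% after 3Cl-HBA, against medians of 6.14% and 5.6% over the 11110 tested genes averaging 5 CPM or more. Tead4 was as variable in DMSO, at 17.5%, and 8 of the 10 genes varied more in DMSO than after 3Cl-HBA, all but Wwtr1 and Tead1.

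Mob1a was also lowest in DMSO replicate 3, by a smaller margin. Its levels were 35.7, 35.9 and 30.7 FPKM in DMSO and 32.6, 32.8 and 31.8 FPKM after 3Cl-HBA, so DMSO replicate 3 was the lowest of the 6. The log2 fold change was -0.07 (SE 0.055), and -0.14 without DMSO replicate 3. Mob1b made up 42, 40.4 and 37.5% of the summed FPKM of both genes in DMSO and 36, 37.6 and 39.2% after 3Cl-HBA, ranges that overlapped. Mob1a and Mob1b are close copies, so reads may have been shared or lost between them in the authors' counting, and the split between them is uncertain to that extent.

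**Figure D3:**
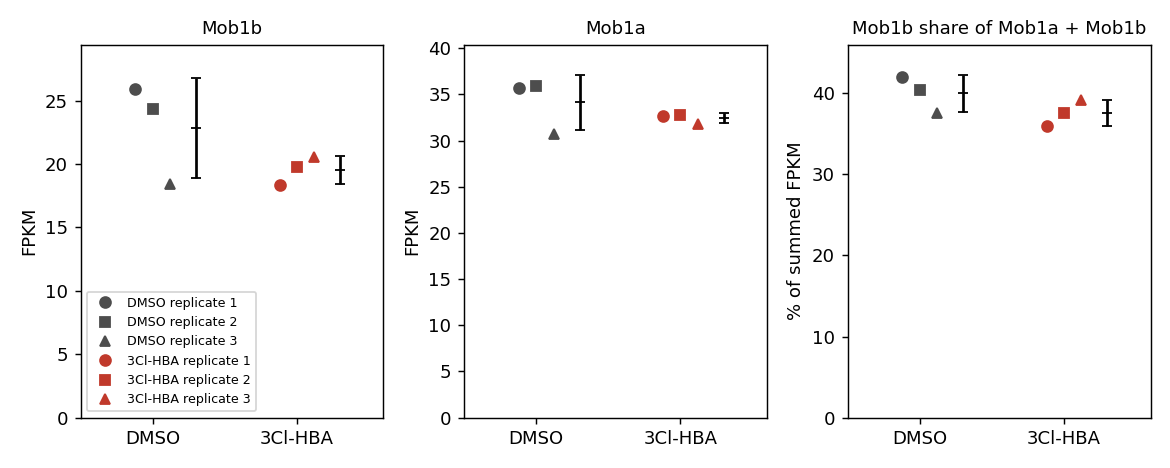
Mob1b and Mob1a levels in FPKM and the Mob1b share of their summed FPKM in percent, per library, with axes from 0, a symbol for each replicate number and the mean ± SD of 3 libraries in black. DMSO replicate 3 has the lowest DMSO level of both genes, and its Mob1b level, 18.4 FPKM, lies at that of 3Cl-HBA replicate 1.

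The genes with the pattern most like that of Mob1b were picked by their correlation with it, so that they share its high DMSO replicates 1 and 2 follows from the choice. Over the 6 libraries and 10648 named genes averaging 5 CPM or more, the closest by Pearson's r of log2 CPM included Ust and Ddx17, at 0.993 and 0.991. Ust encodes a sulfotransferase of the glycosaminoglycans, and Ddx17 an RNA helicase. Ust had 14.7, 13.8 and 11.3 CPM in DMSO and 11.5, 12.3 and 12.5 CPM after 3Cl-HBA. An r over 0.9 was found for 142 of the 10648 genes. Among the 10 Hippo genes, r with Mob1b ran from -0.82 for Yap1 to 0.9 for Mob1a. These correlations share the same 6 libraries and are given as a description.

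The upstream kinases Stk3 and Stk4 had treated levels inside the DMSO range or overlapping it. Stk3 had 17.2, 17.2 and 15.5 FPKM in DMSO and 16.5, 16.3 and 16.9 FPKM after 3Cl-HBA (log2 fold change -0.0029, SE 0.074). All 3 treated values lay inside the DMSO range. Stk4 had 9.15, 9.6 and 10.6 FPKM in DMSO and 9.62, 10.8 and 10.2 FPKM after 3Cl-HBA (log2 fold change 0.07, SE 0.073), with the groups overlapping. In DMSO replicate 3 the kinases stood in opposite places, with Stk3 at its lowest and Stk4 at its highest of the DMSO libraries.

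The LATS kinases, which phosphorylate YAP and TAZ directly, also overlapped between the groups. Lats1 had 12.5, 12.6 and 10.9 FPKM in DMSO and 11.8, 11.9 and 12.4 FPKM after 3Cl-HBA (log2 fold change 0.0019, SE 0.062). Each treated library again lay inside the DMSO range. Lats2, which is itself a known target of YAP and TEAD, had 34.2, 31.8 and 33.7 FPKM in DMSO and 32.2, 31.8 and 30.8 FPKM after 3Cl-HBA. Its log2 fold change was -0.07 (SE 0.052), and DMSO replicate 2 lay among the treated values. Lats2 was the steadiest of the 10 within DMSO, with a coefficient of variation of 3.95%.

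The co-activators Yap1 and Wwtr1, on which the cascade acts, had somewhat higher means after 3Cl-HBA, by less than the SD of the DMSO libraries. The Yap1 means were 67.3 ± 5.52 FPKM in DMSO and 70.5 ± 1.95 FPKM after 3Cl-HBA (SD, n = 3), a difference larger than the treated SD. Yap1 had 63.7, 64.4 and 73.6 FPKM in DMSO and 68.3, 71.6 and 71.7 FPKM after 3Cl-HBA. The highest value of the 6 was that of DMSO replicate 3, and the log2 fold change was 0.07 (SE 0.059). Without DMSO replicate 3 it was 0.14, and without DMSO replicate 1 it was 0.033. Wwtr1 had 35.9, 32.7 and 37.2 FPKM in DMSO and 32.2, 39.8 and 37.9 FPKM after 3Cl-HBA (log2 fold change 0.06, SE 0.073). Its lowest and highest libraries were both treated ones, and without 3Cl-HBA replicate 2 the value turned to -0.0091.

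Of the TEAD factors, Tead1 had the highest FPKM, a lead over Tead3 that was much smaller in CPM. Tead1 had 45.9, 42.6 and 37.5 FPKM in DMSO and 35.2, 42.4 and 41.1 FPKM after 3Cl-HBA (log2 fold change -0.08, SE 0.073). The lowest value was that of 3Cl-HBA replicate 1, without which the log2 fold change was -0.0028. Tead4 had 6.8, 5.12 and 5.02 FPKM in DMSO and 5.77, 5.54 and 5.26 FPKM after 3Cl-HBA. DMSO replicate 1 stood above the other libraries, and the log2 fold change moved from -0.03 (SE 0.095) to 0.12 without it. The other TEAD genes, Tead2 and Tead3, had 5.38 ± 0.368 and 11.7 ± 0.925 FPKM in DMSO and 5.91 ± 0.387 and 12.1 ± 0.875 FPKM after 3Cl-HBA (SD, n = 3).

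The list of genes set upstream of the kinases gave no call. It also takes in MOB relatives such as Mob3c, and genes without an established place in the cascade, such as Tesk1. Of 34 listed genes tested, 0 passed edgeR's test in either direction, 10 lay above 0, against 49.8% of all genes tested, and the list's median was -0.021 on the log2 scale. At an unadjusted edgeR p under 0.05 there were 2, against 5.11% of all genes tested, the atypical cadherins Fat1 and Dchs1. Dchs1 had 4.38, 3.89 and 3.85 FPKM in DMSO and 3.45, 3.24 and 3.82 FPKM after 3Cl-HBA (log2 fold change -0.21, SE 0.080, adjusted p 0.959). Its groups did not overlap, by a margin smaller than the spread within either. Of the 34, 3 lay entirely below DMSO (Dchs1, Map4k4 and Mob3c) and 1 entirely above (Tesk1), against 10.5% of all genes tested in either direction. The scaffold Sav1 had 27.6 ± 0.241 and 28.1 ± 2.37 FPKM, and Nf2, which encodes merlin, a recruiter of LATS to the membrane, 36.3 ± 0.996 and 35.5 ± 1.28 FPKM (SD, n = 3). The most abundant genes of the list were the GTPase gene Rhoa, at 474 ± 6.57 and 488 ± 10.8 FPKM, its effector kinase Rock2, at 105 ± 8.28 and 102 ± 5.35 FPKM, and Fat1, at 64.6 ± 2.24 and 60.2 ± 4.65 FPKM. The highest and lowest log2 fold changes were those of the kinase gene Tesk1 (0.2, SE 0.106) and the MOB relative Mob3c (-0.29, SE 0.182).

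The STRIPAK complex, a phosphatase assembly that removes activating phosphates from MST kinases, also gave 0 calls among 16 tested genes. No member had an unadjusted edgeR p under 0.05, against 5.11% of all genes tested, and 9 of the 16 were above 0, against 49.8%, with a median of 0.019 on the log2 scale. The phosphatase scaffold Ppp2r1a had 103 ± 3.16 and 104 ± 3.92 FPKM in DMSO and after 3Cl-HBA, the membrane anchor Slmap 79 ± 3.39 and 80.2 ± 0.403 FPKM, and the catalytic subunit Ppp2cb 57.5 ± 2.06 and 56.9 ± 3.69 FPKM (SD, n = 3). Log2 fold changes ran from -0.16 for the catalytic subunit Ppp2ca (SE 0.108) to 0.22 for the kinase Stk26 (SE 0.223), which stood at only 1.01 ± 0.178 FPKM in DMSO.

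Of 22 tested genes whose products bind YAP and TAZ, modify them or set their turnover, 0 passed, 12 were above 0, against 49.8% of all genes tested, and the median change was 0.0067 on the log2 scale. At an unadjusted edgeR p under 0.05 there were 5 of the 22, against 5.11% of all genes tested. The angiomotin Amotl1, which holds YAP at cell junctions, had 16.8, 16.5 and 15.6 FPKM in DMSO and 13.4, 15.3 and 14.1 FPKM after 3Cl-HBA (log2 fold change -0.19, SE 0.075, adjusted p 0.959). Its treated libraries all lay below the DMSO libraries, the nearest being DMSO replicate 3 and 3Cl-HBA replicate 2. The phosphatase Ptpn14, which also binds YAP, had 9.12, 9.52 and 8.12 FPKM in DMSO and 7.21, 7.82 and 8.6 FPKM after 3Cl-HBA (-0.18, SE 0.084, adjusted p 0.959). The remaining 3 were the 14-3-3 genes Ywhab, Ywhae and Ywhah, with log2 fold changes of 0.10, 0.09 and 0.11 and adjusted p of 0.959 each. Ywhae had 318, 319.6 and 325 FPKM in DMSO and 333, 350.3 and 339 FPKM after 3Cl-HBA, so each treated library was higher than each DMSO library. Of the 22, 2 lay entirely above DMSO (Ywhab and Ywhae) and 1 entirely below (Amotl1), against 10.5% of all genes tested in either direction. The most abundant gene of the list, alpha-catenin Ctnna1, had 368 ± 7.24 and 366 ± 9.58 FPKM (SD, n = 3).

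Cofactors of TEAD gave 0 calls among the 10 tested genes, Tead2 and Tead3 included, with 6 above 0, against 49.8% of all genes tested, and a median log2 fold change of 0.034. Vgll3 and Vgll4, whose products bind TEAD, the latter in competition with YAP, had 36.8 ± 2.84 and 11.2 ± 1.4 FPKM in DMSO and 36.4 ± 1.86 and 12.4 ± 1.14 FPKM after 3Cl-HBA (SD, n = 3). The related Vgll2 was at most 0.17 FPKM in a library and too low to be tested. Mef2a, a muscle transcription factor and the most abundant gene of the list, had 56.9 ± 7.73 and 55.9 ± 3.55 FPKM. At an unadjusted edgeR p under 0.05 there was 1, against 5.11% of all genes tested, the co-activator Ncoa3, which also had the lowest log2 fold change (-0.19, SE 0.080, adjusted p 0.959), while the highest was that of Runx1 (0.16, SE 0.093).

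Target genes of YAP and TEAD, the readout of the pathway at the RNA level, included very abundant transcripts, and none of them passed. Of 24 tested targets, which include Lats2 and Ptpn14, 0 passed, 16 were above 0, against 49.8% of all genes, with a median of 0.011 on the log2 scale. Ankrd1, a cardiac ankyrin repeat protein, had 1806, 1875 and 1803 FPKM in DMSO and 1858, 1836 and 1823 FPKM after 3Cl-HBA (log2 fold change 0.01, SE 0.039). Ccn2, connective tissue growth factor, had 357, 369 and 342 FPKM in DMSO and 393, 346 and 341 FPKM after 3Cl-HBA (0.02, SE 0.047). Ccn1, a related matrix protein, had 122, 121 and 134 FPKM in DMSO and 126, 128 and 132 FPKM after 3Cl-HBA (0.04, SE 0.050). In each of these genes the groups overlapped. The matrix protein gene Ccdc80, next after Ankrd1 and Ccn2 in abundance, had 182 ± 7.64 and 178 ± 6.16 FPKM (SD, n = 3). At an unadjusted edgeR p under 0.05 there were 4 of the 24, against 5.11% of all genes tested, namely Gadd45a (log2 fold change 0.12, SE 0.060), Dock5 (-0.14, SE 0.068), Ptpn14 and Arhgef17 (-0.11, SE 0.052), with adjusted p of 0.959 each. Changes ran from -0.18 for Ptpn14 to 0.20 for the kinase Nuak2 (SE 0.134).

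**Figure D4:**
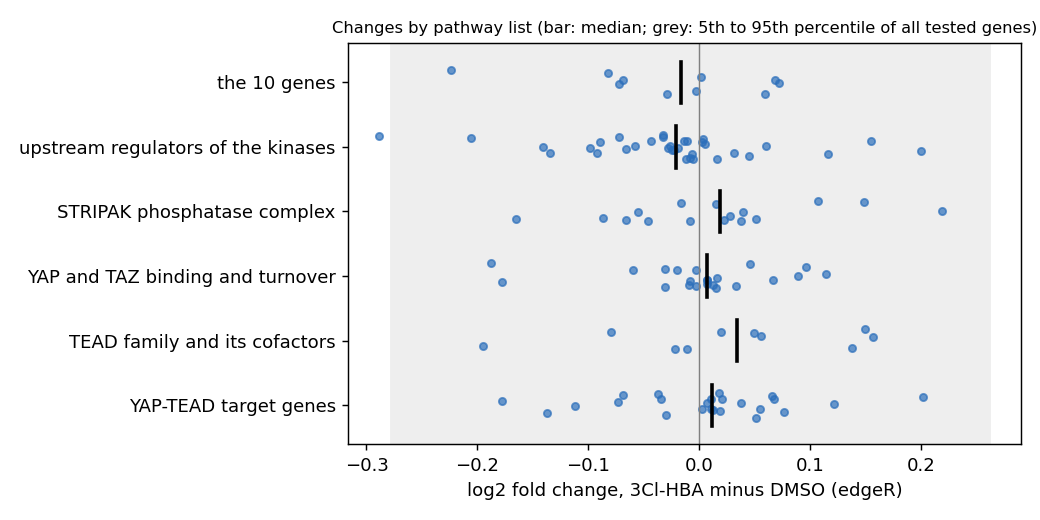
Log2 fold change, 3Cl-HBA minus DMSO, from edgeR, for the 10 genes and for each tested gene of the 5 pathway lists, with a bar at each median and a grey band from the 5th to the 95th percentile of all tested genes, -0.28 to 0.26. For tested genes averaging 5 CPM or more, as all of the 10 genes do, the same percentiles were -0.16 and 0.17. Mob1b, at -0.22, lies inside the grey band but below this narrower range. The medians lie between -0.021 and 0.034, and the points fall on both sides of 0 in each list.

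The sequence that TEAD factors recognise can be shown in the stretch just before the start of these genes. The letters GGAATG, or CATTCC on the other strand, were searched in the 250 bases before each gene start in RefSeq's table for the rat build GRCr8, which is not known to be the build of the deposited table. Among 33469 such stretches 12.1% held at least 1 match and 0.0807% held 3 or more. Of the 10 Hippo genes 6 were matched in the table, and Yap1 and Mob1b held 1 match each. Of 18 matched target genes, including Foxf2, whose RNA level was not analysed, 7 held at least 1, and Ccn2 held 3. The 3 stretches follow 5′ to 3′ on the gene's own strand, with the matches in capitals, Ccn2 as the known target and Yap1 and Mob1b as the members with a match. They are Ccn2 at chr1:22624615-22624864, Yap1 at chr8:13451438-13451687 and Mob1b at chr14:19649920-19650169, all on the minus strand.
Ccn2: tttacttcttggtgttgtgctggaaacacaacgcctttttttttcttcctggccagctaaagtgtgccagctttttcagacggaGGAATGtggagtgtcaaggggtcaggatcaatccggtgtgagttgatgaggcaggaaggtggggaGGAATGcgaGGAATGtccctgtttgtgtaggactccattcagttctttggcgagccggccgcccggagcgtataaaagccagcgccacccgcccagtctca
Yap1: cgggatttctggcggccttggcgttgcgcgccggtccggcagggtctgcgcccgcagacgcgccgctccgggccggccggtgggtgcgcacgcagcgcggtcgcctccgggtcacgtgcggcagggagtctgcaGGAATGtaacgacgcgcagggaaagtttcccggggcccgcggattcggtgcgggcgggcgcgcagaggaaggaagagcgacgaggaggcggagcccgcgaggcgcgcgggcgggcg
Mob1b: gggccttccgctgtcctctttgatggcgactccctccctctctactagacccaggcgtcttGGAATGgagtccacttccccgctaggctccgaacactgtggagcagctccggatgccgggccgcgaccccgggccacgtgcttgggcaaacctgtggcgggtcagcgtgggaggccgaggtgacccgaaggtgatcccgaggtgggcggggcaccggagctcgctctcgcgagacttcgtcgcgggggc
In Ccn2 the matches begin 166, 101 and 92 bases before the start, with the latter close together. In Yap1 the match begins 116 bases and in Mob1b 189 bases before the start. The measured values of these genes stood in different places: Ccn2 and Yap1 had log2 fold changes of 0.02 and 0.07, and Mob1b of -0.22. A match describes letters in these windows and shows neither binding nor control.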

How the data were processed

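The authors deposited, for 22250 genes, raw read counts, as whole numbers, and FPKM for every library, per the file headers. The FPKM equal counts divided by the table's gene length and the library total within a relative gap of 8.2e-08. RNA was prepared with a kit that removes ribosomal RNA, per the labels' protocols, which name DESeq2. No source used here gives the aligner, counter, strand setting, build or annotation. Columns were tied to groups through the treatment protocol. The fit across all genes used edgeR 4.0.16 under R 4.3.3, with filterByExpr at its minimum count of 10, TMM factors and the robust quasi-likelihood F test without a block. It kept 13903 genes, all 10 members included. Adjusted p are Benjamini-Hochberg over all genes tested, with a threshold of 0.05, and a positive log2 fold change means higher after 3Cl-HBA. SEs are the absolute log2 fold change over the square root of F. log2 CPM used a prior count of 2. Alternatives were DESeq2 1.42.0, limma-voom (limma 3.58.1), other scalings, no filter, a replicate block, each library's length trend removed, and each library left out. The procedure was tested on simulated data with changes far larger than those of the 10 genes. That run does not show whether changes of their size would be found. The members, lists, markers and naming rule were chosen with earlier results of these data known. Named from each list were called genes, the 3 most abundant in DMSO by FPKM, the highest and lowest fold change, and Ccn1, Ccn2 and Ankrd1; Sav1, Nf2, Tead2, Tead3, Vgll2, Vgll4 and the genes at an unadjusted p below 0.05 were picked with their values in view. RNA levels of the listed Wtip, Vgll1 and Foxf2, and of 2 markers, were not analysed here. Single values of some genes that the naming rule selects are not reported here.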

Additional observations from a re-analysis of the deposited data

How the results depend on the processing

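Among all genes tested, the count past edgeR's threshold was 0 with DESeq2 size factors, library totals alone, DESeq2, limma-voom, the length trend removed and the replicate block, and 2 with no filter on low counts. Leaving out 1 library gave 0 to 8, the 8 without DMSO replicate 3, with Mob1b among them, while no other Hippo gene or list gene passed under any alternative run. Whether same-numbered libraries were paired is not known. Their deviations from the group means had correlations of -0.113, -0.0411 and -0.00848, against -0.0621 to 0.111 for libraries of different number. Deviations within a group of 3 depend on each other, so these values cannot decide on pairing. The replicate block called 0 genes, as did the main fit without it. Of the 10 genes, 3 to 6 were above 0 with 1 library left out and 3 to 5 under the other alternatives. Yap1, Stk4, Tead1, Lats2, Mob1a and Mob1b kept their sign under all 13 alternatives, while Wwtr1, Tead4, Lats1 and Stk3 changed it in 1, 2, 3 and 5. The median of the targets turned to -0.0051 and that of STRIPAK to -0.034 without DMSO replicate 3, that of TEAD cofactors to -0.031 and that of YAP and TAZ binding genes to -0.0082 without 3Cl-HBA replicate 2, and the last to -0.014 without DMSO replicate 2. The median of the genes set upstream of the kinases, -0.021 in the main fit, stayed below 0. It ran from -0.033 without 3Cl-HBA replicate 3 to -0.00475 with the length trend removed. With CPM in place of FPKM, 1 of the 10 kept its place in the order of levels, which then began with Lats2, Mob1a and Yap1. No name had several rows, so summing rows was not run. With at least 349 reads per Hippo gene and library, SEs were 0.052 to 0.095.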
